A study of Sus scrofa with 30 samples.

Results

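Cytosolic ribosomal proteins are the protein part of the ribosome, the particle that makes every protein of the cell outside mitochondria. In the teat arrays they were found by gene symbol: probe sets with exactly 1 symbol in the platform annotation that begins with RPL or RPS followed by a number, or is RPSA, RPLP0, RPLP1 or RPLP2. The rule named 67 symbols and left out 3 kinase genes and 6 symbols with a suffix L or P1, so 58 genes remained of 6765 genes with such a probe set: 24 of the small subunit, 31 of the large subunit and the 3 of its stalk. Together they had 90 probe sets among the 10069 with 1 symbol, and each gene was followed through the probe set with the highest mean over all arrays. The choice of genes used symbols only, and the choice of probe set used the mean over all groups.

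The small subunit reads the messenger RNA, and the large subunit joins the amino acids. The stalk, built from RPLP0, RPLP1 and RPLP2, draws elongation factors to the ribosome. In human and mouse cells ribosomal protein messengers share a 5' terminal oligopyrimidine start that couples their translation to growth signals, and their amounts are held close to one another because most of them enter each ribosome as a single copy.

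The samples were teat tissue of peripubertal pigs (Sus scrofa) of commercial dam lines, taken at slaughter at a mean end weight of 110 kg, with 30 Affymetrix Porcine Genome arrays, 1 for each tissue piece. Inverted teats, which cannot be grasped by a piglet, were told from normal ones by inspection and palpation, and the comparisons address which genes differ with the teat's shape and with the animal's predisposition. Of 10 animals, the 5 affected ones (963, 964, 1037, 1059 and 1103) each gave an inverted and a normal teat, and the 5 non-affected ones (950, 957, 1040, 1058 and 1109) each gave a normal teat. Each teat gave an epithelial and a mesenchymal piece. This makes 6 groups of 5 arrays. For epithelial and again for mesenchymal tissue they are the inverted teats (all from affected animals), the affected animals' own normal teats, and the teats of the non-affected, which were normal. By breed, 6 animals were Large White x German Landrace. German Landrace were 957 and 963, and a cross of that kind with Pietrain, written Pietrain x (Large White x German Landrace), gave 1103 and 1109, so each of these breeds had 1 affected and 1 non-affected animal.

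The deposited values were on a log2 scale, and the array medians lay between 5.71 and 6.04. The upper end of the arrays differed by tissue: the 99th percentile was 11.28 to 11.48 on epithelial arrays and 11.74 to 12.02 on mesenchymal arrays, without overlap. Quantile normalization, which gives all arrays the same distribution, removes that difference, and results that turn on it are given on both scales. The labelled tissues were mixed. The luminal keratins KRT8, KRT18 and KRT19 averaged 6.75 to 10.66 in epithelial pieces and 2.38 to 11.14 in mesenchymal pieces, with KRT18 listed at 0 on some arrays. Skeletal muscle markers, of which 23 were measured and 12 were listed at 0 on some array, averaged 3.67 to 8.58 in epithelial and 3.70 to 11.61 in mesenchymal pieces, and the 14 adipocyte markers 7.36 to 10.13 and 9.49 to 11.48. In such bulk tissue, fewer cells of a type and less RNA per cell cannot be told apart.

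Ribosomal protein genes gave some of the brightest signals of the teat. For 54 of the 58 genes the mean over 30 arrays was above 11 and lay between 11.95 and 13.42, at or above the 99.3rd percentile of all probe sets, and 51 exceeded their array's 99th percentile on all 30 arrays. For the 24 genes with more than 1 probe set this level is partly set by the choice of the brightest one. Of the 32 probe sets not chosen, 28 had a mean under 11. The signals of different probe sets are not on a common scale of abundance, so no order among the genes is read from them. The other 4 genes were dim. RPL37 had a mean of 7.75, RPL26 of 5.28 and RPS15A of 4.67. RPL30 had a mean of 1.70, was listed at 0 on 7 arrays, reached at most 3.93 and passed no filter, so it was not tested. RPS15A passed the filter in mesenchymal tissue and between tissues but not in epithelial tissue alone, which leaves 56 genes tested in epithelial tissue and 57 in every other comparison.

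**Figure D1:**
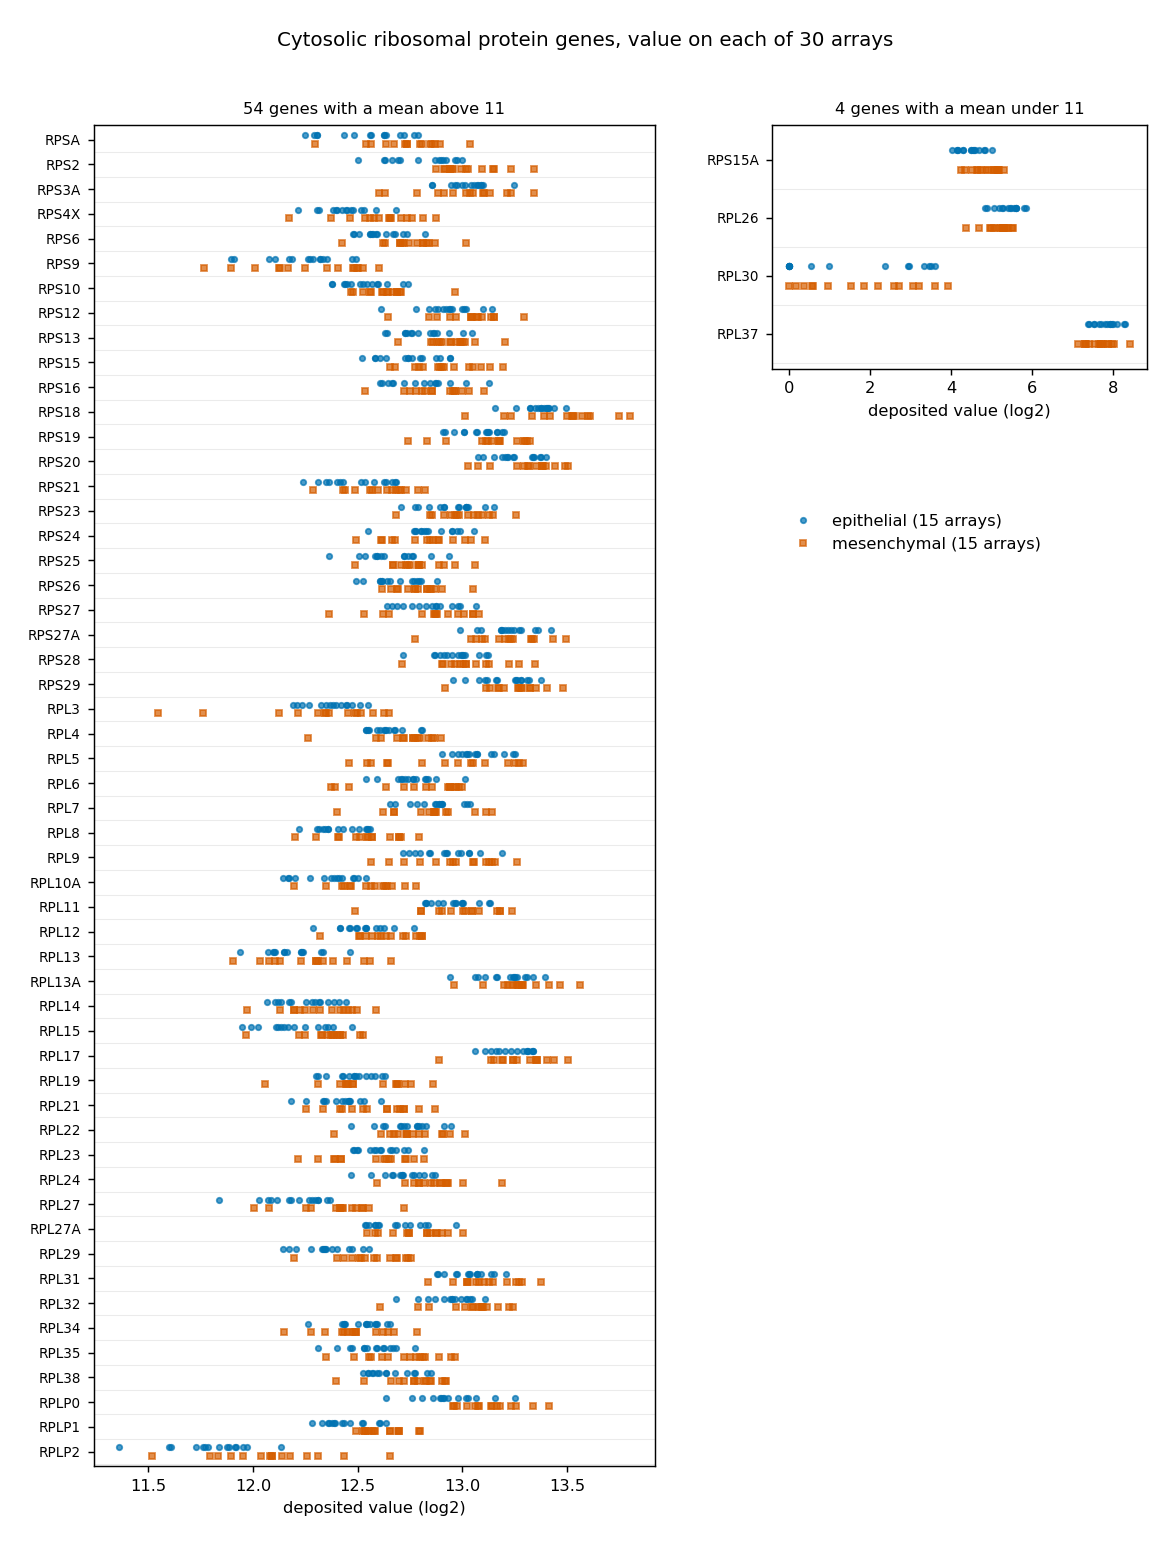
Deposited log2 value of each gene on 15 epithelial arrays (blue circles) and 15 mesenchymal arrays (orange squares), small subunit first, then large subunit and stalk; 54 genes with a mean above 11 on the left, 4 with a mean under 11 on the right. The values of each of the 54 genes span at most 1.30 log2 units, and the tissues overlap for all 58 genes; RPL3 on the mesenchymal side reaches down to 11.55.

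Within groups these genes varied little. The SD within groups, over 24 degrees of freedom, pools both tissues. It had a median of 0.139 for the 54 bright genes, from 0.0995 to 0.234, against a median of 0.435 over all probe sets. Among bright probe sets the contrast was smaller: the 97 other probe sets with means in the same range had a median SD of 0.229, and 15 of them (15.5%) lay at or under the ribosomal median. The small-subunit genes (median 0.141) and the large-subunit and stalk genes (0.136) had close values. RPLP1, RPS10 and RPS6, the small-subunit protein phosphorylated by S6 kinases, had the smallest spread, each at 0.10. RPS6 lay between 12.42 and 13.02 on all arrays.

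Only 4 of the 54 had a within-group SD of 0.20 or more: RPL3, a core protein near the peptidyl transferase centre, with 0.23, RPLP2 with 0.23, RPL5 with 0.22 and RPS9 with 0.22. The dim genes varied more, with 0.29 for RPL26, 0.32 for RPS15A and 0.34 for RPL37, and RPL30 had the widest spread of all 58.

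**Figure D2:**
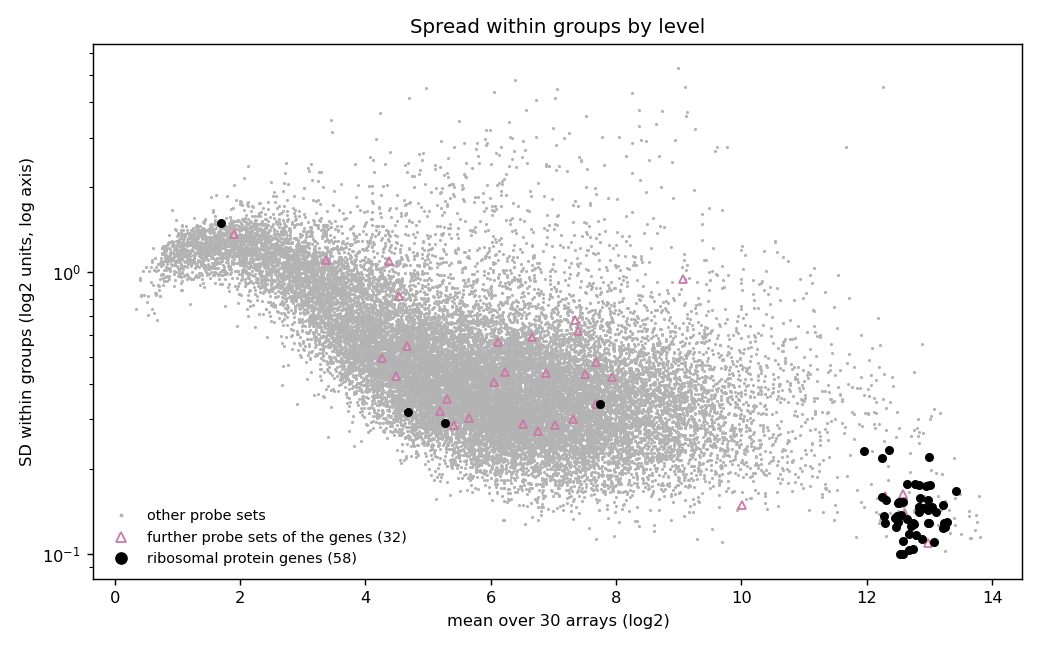
SD within groups (log axis) against the mean over 30 arrays for all probe sets (grey), the 58 chosen probe sets (black circles) and the 32 further probe sets of the same genes (open triangles). The 54 bright genes lie at the lower right, with SDs of 0.0995 to 0.234; 4 chosen and 28 further probe sets lie at lower means.

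The array medians of the 58 genes summarise the family. In epithelial tissue the medians were 12.53 to 12.73 in inverted teats of affected animals, 12.59 to 12.78 in their normal teats and 12.61 to 12.82 in normal teats of non-affected animals. In mesenchymal tissue they were 12.68 to 12.96, 12.64 to 12.86 and 12.48 to 12.80 in the same order of groups. All groups overlapped within a tissue. The lowest of the 30 values, 12.48, was that of the mesenchymal piece of animal 1058. The small-subunit median ran from 12.60 to 13.07 over the arrays and the median of the large-subunit and stalk genes from 12.33 to 12.81.

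**Figure D3:**
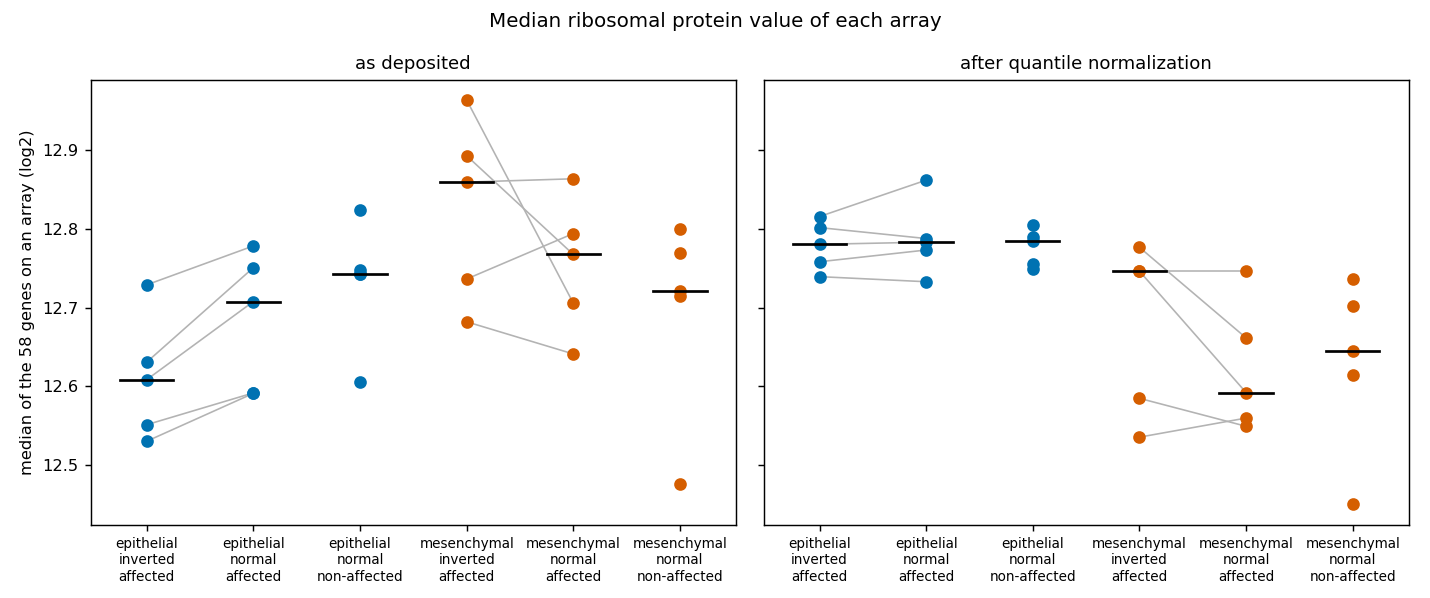
Median log2 value of the 58 genes on each array, by group, as deposited (left) and after quantile normalization (right); points are animals, bars group medians, lines join the inverted and the normal teat of an animal. As deposited, all 5 epithelial lines run upward to the normal teat; after quantile normalization they run both ways, and epithelial arrays lie at 12.73 to 12.86 against 12.45 to 12.78 for mesenchymal arrays.

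Between tissues in normal teats, few ribosomal protein genes were called. Of 57 tested, 0 were higher and 1 was lower in epithelial than in mesenchymal tissue (limma, Benjamini-Hochberg adjusted p under 0.05), while 12.9% of all 18286 probe sets were called higher and 20.6% lower, 33.5% in all. The median difference of the 57 genes was -0.02, with 23 above and 34 below 0, beside a median of -0.06 and 44.4% above 0 over all probe sets. Single animals went both ways. Over the 58 genes the median was -0.05, -0.24, -0.01, 0.16 and -0.20 in affected animals 963, 964, 1037, 1059 and 1103. In non-affected animals 950, 957, 1040, 1058 and 1109 it was -0.08, 0.01, 0.06, 0.14 and -0.04. At an unadjusted p under 0.05 were 3 of the 57, beside 44.2% of all probe sets. The count rests on the scale: with quantile normalization 12 were called higher, 1 lower and the median was 0.17, and over all probe sets the split was 3484 higher and 2888 lower, against 2360 and 3762 as deposited. With the animal as a block RPL5 was called higher and RPS15A and RPS2 lower, beside 3306 higher and 4818 lower of all probe sets. In the same comparison all 3 luminal keratins rose in epithelium, and 20 of 23 skeletal muscle and all 14 adipocyte markers fell (medians 3.14, -3.86 and -2.02); with quantile normalization 3, 19 and 13 were called so. The part of these cells in the ribosomal values was not tested.

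The 1 gene called lower as deposited was RPS15A, a dim small-subunit probe set near the filter's limit. Of the normal teats it exceeded the filter's percentile on 2 of 5 epithelial arrays of affected and 0 of 5 of non-affected animals, and on 3 of 5 mesenchymal arrays of each. It thus entered the test mainly through the tissue where it is higher, and its call gives no support to a difference of the family. It had 4.30, 4.70, 4.16, 4.59 and 5.02 in epithelial normal teats of affected animals (963, 964, 1037, 1059, 1103) and 4.30, 4.49, 4.16, 4.57 and 4.01 in those of non-affected animals (950, 957, 1040, 1058, 1109). In mesenchymal normal teats the same animals had 5.10, 4.73, 4.34, 5.06 and 5.17, and 4.24, 4.65, 5.16, 5.07 and 4.87. The epithelial value was lower in all 5 affected and in 4 of 5 non-affected animals, but the tissues overlapped. The means were 4.43 ± 0.30 in epithelial and 4.84 ± 0.34 in mesenchymal tissue (SD, n = 10 each), a difference of -0.41 ± 0.15 (SE; limma adjusted p = 0.036). With no filter the adjusted p was 0.051, with median centring 0.065 and with a variance trend 0.055, so the call was lost under each. With quantile normalization the difference was -0.44 (limma adjusted p = 0.040), and without animal 963, 1040, 1058, 1059 or 1109 it was no longer called, with adjusted p of 0.087, 0.10, 0.057, 0.074 and 0.098.

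RPL5, which with RPL11 and 5S ribosomal RNA binds the p53 regulator MDM2 in human cells, had the largest positive difference among the bright genes. In epithelial normal teats it had 13.14, 13.07, 13.00, 13.15 and 13.06 in the affected animals and 13.25, 13.02, 13.24, 12.95 and 13.20 in the non-affected ones. In mesenchymal normal teats it had 13.11, 13.25, 12.64, 12.56 and 12.55, and 13.22, 13.04, 12.80, 12.46 and 12.98. The epithelial values were close together, whereas the mesenchymal values ran from 12.46 to 13.25, so that the tissues overlapped. The difference was 0.25 ± 0.11 (SE; limma adjusted p = 0.095), and with quantile normalization 0.41 (adjusted p = 0.0078).

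The mesenchymal spread of RPL5 was seen beside that of luminal keratins and that of milk genes. The mesenchymal normal teat of animal 1058, with RPL5 at 12.46, had a luminal keratin mean of 2.63, that of animal 1103, at 12.55, had 2.38, and that of animal 1059, at 12.56, had 5.78. Those of animals 964 and 957, with RPL5 at 13.25 and 13.04, had keratin means of 10.52 and 10.65. Those of animals 963, 950, 1109, 1040 and 1037, at 13.11, 13.22, 12.98, 12.80 and 12.64, had 10.61, 9.15, 6.64, 7.28 and 4.46. In the mesenchymal inverted teats RPL5 had 13.27, 13.29, 12.64, 12.92 and 13.05 in animals 963, 964, 1037, 1059 and 1103, with keratin means of 10.39, 11.14, 5.19, 9.65 and 8.76. Of the milk genes 6 were measured, 2 of them (CSN1S1 and CSN3) listed at 0 on some array. Their mean was 8.53, 10.32, 9.95 and 7.96 in normal mesenchymal pieces of animals 963, 964, 950 and 957, which had the highest RPL5 values. It was 3.28 to 5.36 in the other normal mesenchymal pieces. It was 7.44, 10.49, 4.36, 4.21 and 4.43 in the mesenchymal inverted teats of animals 963, 964, 1037, 1059 and 1103. Keratins and milk genes are only 2 of the marker lists measured in these pieces. Skeletal muscle markers averaged 10.77, 9.72, 8.93, 11.61 and 8.39 in normal mesenchymal pieces of animals 963, 964, 1037, 1059 and 1103. They averaged 10.10, 8.92, 3.70, 11.02 and 9.21 in those of animals 950, 957, 1040, 1058 and 1109. The part of keratin-bearing cells, of muscle or of milk gene expression in the RPL5 values was not tested. RPL11 had a tissue difference of 0.04 ± 0.09.

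RPL3 and RPS9 also had wide mesenchymal ranges, with their lowest mesenchymal values in animals 1058 and 1059. A wider mesenchymal spread was not particular to RPL5, RPL3 and RPS9. In normal teats the mesenchymal SD was the larger for all of the 58 genes except RPL27A, RPL37, RPS10 and RPS13. The epithelial and mesenchymal SDs (n = 10 each) were 0.12 and 0.34 for RPL3, 0.17 and 0.27 for RPS9, and 0.11 and 0.26 for RPL6. RPL3 had 12.45, 12.57, 12.12, 11.76 and 12.49 in mesenchymal normal teats of affected and 12.34, 12.50, 12.31, 11.55 and 12.35 in those of non-affected animals, beside 12.21 to 12.55 in all epithelial normal teats. Its difference was 0.15 ± 0.12 as deposited and 0.45 with quantile normalization, where it was among the 12 called (limma adjusted p = 0.014). RPS9 had 0.05 ± 0.11 as deposited, with values of 11.89 to 12.49 in epithelial and 11.76 to 12.50 in mesenchymal normal teats, and 0.37 with quantile normalization (adjusted p = 0.017). The other genes called higher with quantile normalization were RPL5, RPL13, RPL14, RPL15, RPL19, RPL22, RPL23, RPL34, RPL7 and RPS24. The 12 of 57 lay near the share of all probe sets called higher on that scale, 3484 of 18286. Of the 12, 10 belong to the large subunit, which with its stalk made up 33 of the 57 genes tested. A difference between the subunits was not tested.

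On the negative side RPS2, which sits at the messenger entry channel, had 12.84 ± 0.13 in epithelial and 13.02 ± 0.14 in mesenchymal normal teats (SD, n = 10 each), a difference of -0.18 ± 0.09 with adjusted p = 0.11 by limma; with a variance trend or the animal as a block it was called, with adjusted p = 0.046 in each. The 3 stalk genes had -0.16 ± 0.09 (RPLP0), -0.14 ± 0.08 (RPLP1) and -0.16 ± 0.12 (RPLP2). RPSA, the small-subunit protein also known as laminin receptor, had -0.11 ± 0.09 and RPS27A, made as a fusion with ubiquitin, had 0.07 ± 0.09. None of the stalk genes, RPSA and RPS27A was called by limma, and RPLP0, RPLP1, RPLP2, RPS2 and RPSA turned to 0 or above with quantile normalization.

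In inverted teats the same tissue comparison gave mostly negative differences as deposited. Of 57 genes 0 were higher and 1 was lower (limma, adjusted p under 0.05), beside 0.848% of all 17108 probe sets called higher and 11.5% lower. Above 0 lay 2 of 57, beside 39.4% of all probe sets, and 15 of 57 had an unadjusted p under 0.05, beside 30.3%. Below 0 lay 55 of 57, with a median of -0.22, beside 60.6% and a median of -0.12 over all probe sets, and 29 of the 57 were lower in epithelium in all 5 animals, beside 27.6% of all probe sets. The animals differed in size. The median difference over the 58 genes was -0.25, -0.35 and -0.36 in animals 963, 964 and 1103. It was -0.03 and -0.02 in animals 1037 and 1059. With quantile normalization 49 of 57 lay above 0, the median was 0.09, and no member was called. Quantile normalization also moved the median of all probe sets to 0.01 and left 2 of them called, of 2115 as deposited. Of the markers, 12 of 14 adipocyte genes fell here (0 with quantile normalization), and neither the luminal keratins (median 0.51) nor the skeletal muscle markers (median -2.23) were called; their part was not tested.

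The gene that fell was RPLP2, of the stalk. It had 11.73, 11.60, 11.84, 11.76 and 11.77 in epithelial inverted teats of animals 963, 964, 1037, 1059 and 1103, and 12.18, 12.14, 12.26, 12.04 and 12.66 in the mesenchymal inverted teats of the same animals. All epithelial values lay below all mesenchymal ones. The difference was -0.52 ± 0.14 (SE; limma adjusted p = 0.040), but -0.06 with quantile normalization (adjusted p = 0.80), and with any 1 of the 5 animals left out it was not called (adjusted p 0.087 to 0.11).

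The next genes were RPL29 with -0.36 ± 0.12, RPL27 with -0.36 ± 0.12 and RPL10A with -0.36 ± 0.13, all of the large subunit and none called by limma (adjusted p 0.068 to 0.081). RPL29 had means of 12.29 ± 0.10 in epithelial and 12.65 ± 0.09 in mesenchymal inverted teats, RPL27 had 12.16 ± 0.11 and 12.52 ± 0.13, and RPL10A had 12.27 ± 0.13 and 12.64 ± 0.12 (SD, n = 5 each). With the animal as a block 6 of the 57 genes were called lower, RPL10A, RPL15, RPL27, RPL29, RPL35 and RPLP2. Of all 17108 probe sets 3172 were called lower in that setting, a larger share than that of these genes. RPSA had -0.38 ± 0.15, RPS6 -0.30 ± 0.12, RPLP0 -0.27 ± 0.13 and RPLP1 -0.26 ± 0.11, without passing. Above 0 were 2 dim genes, RPL37 with 0.14 ± 0.23 and RPL26 with 0.11 ± 0.14.

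**Figure D4:**
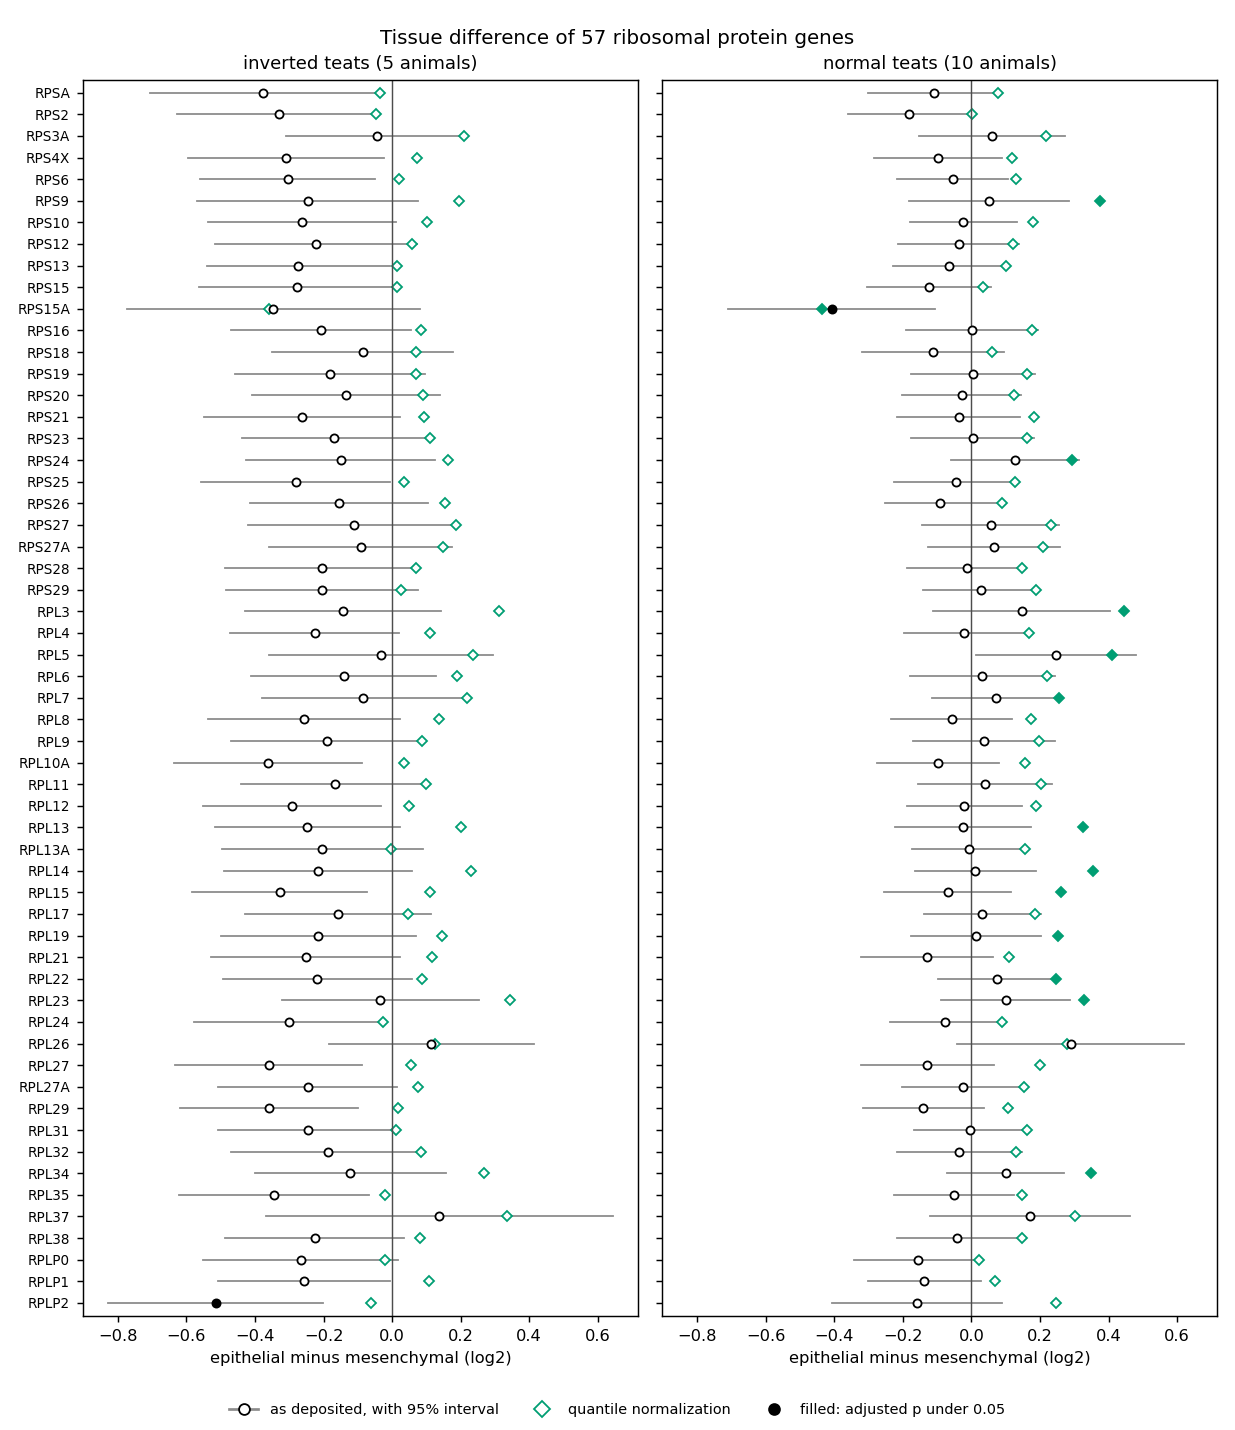
Epithelial minus mesenchymal log2 difference of 57 genes in inverted teats (left) and normal teats (right): circles with 95% intervals as deposited, green diamonds with quantile normalization, filled where the limma adjusted p is under 0.05. As deposited the inverted teat differences centre on -0.22 and those of normal teats on -0.02; with quantile normalization the centres are 0.09 and 0.17.

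**Figure D5:**
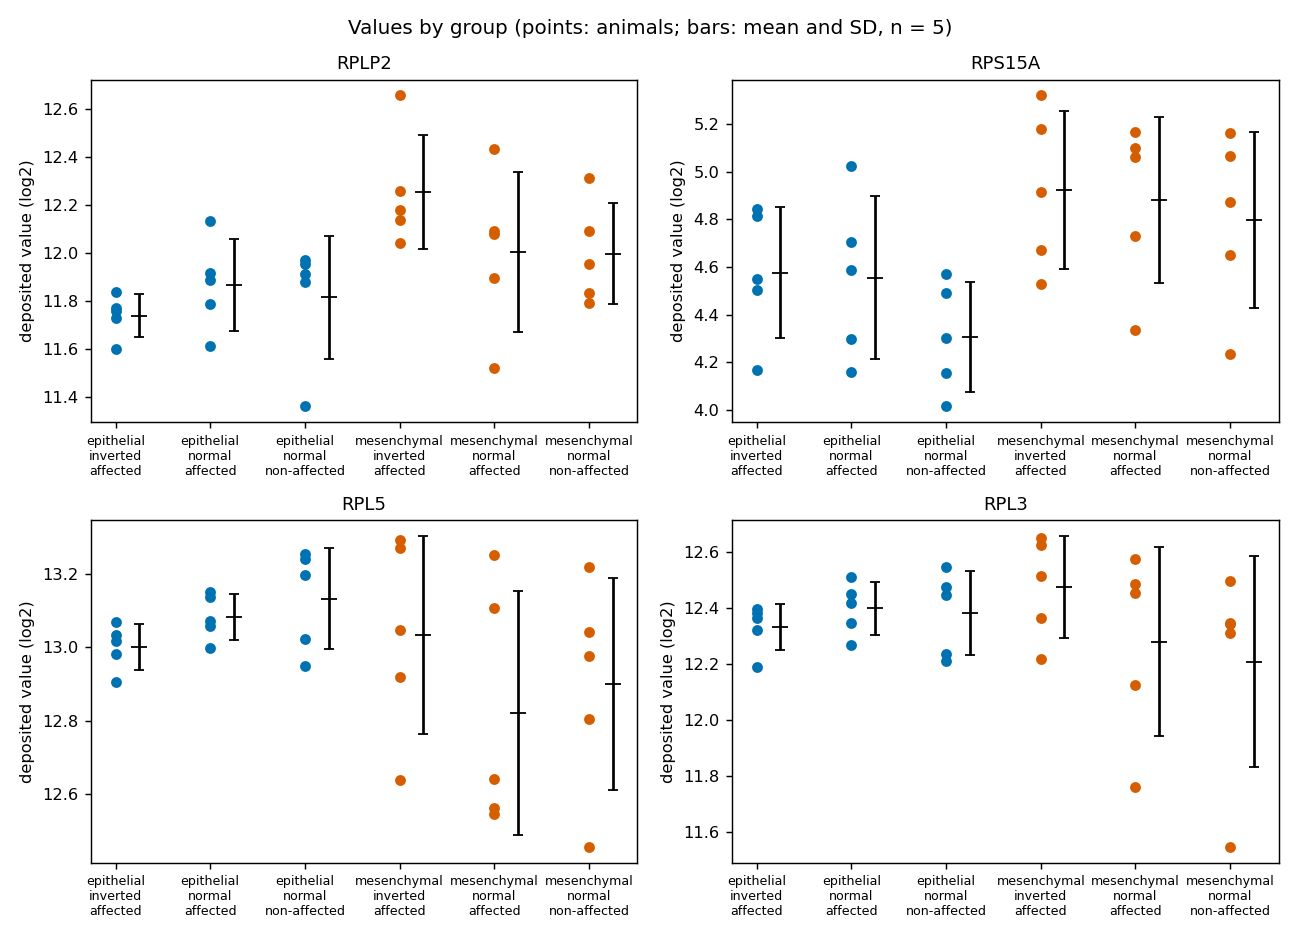
Deposited log2 values of RPLP2, RPS15A, RPL5 and RPL3 in the 6 groups; points are animals, bars the mean and SD (n = 5). RPLP2 separates the tissues in inverted teats, RPS15A overlaps between tissues, and RPL5 and RPL3 are spread over a wider range in mesenchymal than in epithelial tissue.

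Between inverted and normal teats of the same animals no gene was called by limma in either tissue. In epithelium 0 of 56 genes were called, beside 0% of all 17661 probe sets; 0 of the 56 and 303 probe sets (1.72%) had an unadjusted p under 0.05. All 56 had a lower mean in inverted than in normal epithelium, beside 49.7% of all probe sets (50.3% were above 0), with a median of -0.10, and 30 of the 56 were lower in all 5 animals, beside 3.61% of all probe sets. The median of the differences of the 58 genes was -0.11, -0.11, -0.07, -0.13 and -0.04 in animals 963, 964, 1037, 1059 and 1103. No single difference was called by limma. The fit had no term for the animal, so its error held the spread between animals. With the animal as a block 0 of all probe sets were called higher or lower. The size of the shift depended on the scale: with quantile normalization the median was -0.03 and 14 of 56 lay above 0. On that scale 9 of the 56 were lower in all 5 animals, beside 3.92% of all probe sets. The genes are measured on the same arrays and are not independent of one another.

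The smallest unadjusted p-values were those of RPL35, RPL26 and RPL22. RPL35, a large-subunit protein near the exit tunnel, had 12.40, 12.31, 12.67, 12.47 and 12.54 in inverted and 12.65, 12.53, 12.77, 12.68 and 12.59 in normal epithelium of animals 963, 964, 1037, 1059 and 1103. Each animal's inverted teat was the lower one, though the groups overlapped, and the difference was -0.17 ± 0.10 (95% interval -0.39 to 0.05). RPL22 had 12.64 ± 0.11 in inverted and 12.79 ± 0.10 in normal epithelium (SD, n = 5 each), with -0.15 ± 0.10. RPL26 had -0.25 ± 0.16, RPSA -0.15 ± 0.13, RPL11 -0.10 ± 0.10, RPS6 -0.09 ± 0.10, RPL5 -0.08 ± 0.10 and RPS27A -0.11 ± 0.10. Over the 56 genes the 95% intervals, from the fit without the animal, reached from -0.60 to 0.38.

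Markers of other cells in the same pieces also had differences, none of them called. In epithelium the inverted teats had a median difference of 1.68 over 20 skeletal muscle markers, 19 of them above 0, and of -0.66 over the 3 luminal keratins. The piece with the lowest keratin mean, 6.75, was the inverted teat of animal 1103; without it the median of the ribosomal genes was -0.08. The part of muscle or keratin-bearing cells in the ribosomal differences was not tested.

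In mesenchyme most differences lay above 0. Of 57 genes 0 were called by limma, beside 0% of all 17839 probe sets, with 0 of 57 and 78 (0.437%) at an unadjusted p under 0.05. Above 0 lay 49 of 57, with a median of 0.07, beside 66.3% and a median of 0.07 over all probe sets, and 10 of 57 were higher in all 5 animals, beside 4.51%. With quantile normalization 8 of 57 were higher in all 5 animals, beside 2.34% of all probe sets, and 1 was lower, beside 1.68%. The per-animal medians as deposited were 0.09, 0.02, -0.01, 0.06 and 0.15. RPS6, with 12.83, 12.81, 12.70, 12.84 and 13.02 in inverted and 12.74, 12.78, 12.63, 12.72 and 12.42 in normal mesenchyme, was higher in each animal. Its groups overlapped, and the difference was 0.18 ± 0.13. RPLP2 had 0.25 ± 0.19 and RPL4 0.18 ± 0.14, whereas RPS26 had -0.09 ± 0.13, RPLP0 -0.05 ± 0.14 and RPL37 -0.04 ± 0.23. The widest gap of RPL4 was in animal 1103, 12.87 in inverted against 12.26 in normal mesenchyme, and animal 964 went the other way. That of RPLP2 was in animal 1037, 12.26 against 11.52, and animal 1059 went the other way. The luminal keratins had a median of 2.42 and the skeletal muscle markers of -1.35 in these pieces, none called, and their part was not tested.

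The difference between those teat effects, epithelial minus mesenchymal, was tested on all 30 arrays. No gene was called by limma, beside 0% of all 18783 probe sets, and 0 of 57 had an unadjusted p under 0.05, beside 171 probe sets (0.910%). Below 0 lay 56 of 57, with a median of -0.16, beside 61.1% and -0.07 over all probe sets. With quantile normalization the median was -0.08 and 6 of 57 lay above 0. RPS6 had -0.27 ± 0.14 (unadjusted p = 0.066 by limma), RPL35 -0.27 ± 0.16 and RPL22 -0.26 ± 0.15.

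Predisposition was addressed by normal teats of affected against non-affected animals. In epithelium 0 of 56 genes were called by limma, beside 0% of all probe sets, and 1 had an unadjusted p under 0.05, beside 420 probe sets (2.38%). The median was -0.01 with 22 of 56 above 0, beside 45.5% of all probe sets, and 0.03 with 41 above 0 by quantile normalization. The 1 gene was RPL26, a dim large-subunit probe set whose protein in human cells binds the p53 messenger. It had 5.41, 5.60, 5.81, 5.84 and 5.46 in affected animals (963, 964, 1037, 1059, 1103) and 5.48, 4.85, 4.89, 5.06 and 5.61 in non-affected animals (950, 957, 1040, 1058, 1109). The lowest 3 values were of non-affected animals, and the groups overlapped, with a difference of 0.45 ± 0.16 (limma adjusted p = 0.999). RPS25, RPL7 and RPL6 had -0.16 ± 0.11, -0.13 ± 0.10 and -0.11 ± 0.10, and RPL27 and RPL13 had 0.13 ± 0.12 and 0.11 ± 0.11.

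In mesenchyme 0 of 57 genes were called between affected and non-affected animals by limma, beside 0% of all probe sets, and 0 had an unadjusted p under 0.05, beside 201 probe sets (1.13%). Above 0 lay 48 of 57, with a median of 0.08, beside 47.4% and -0.02 over all probe sets. This median turned on 1 animal: without the non-affected animal 1058 it was 0.01. The skeletal muscle markers had a median of 1.23 here, and their part was not tested. RPS15 had 0.20 ± 0.14, RPL13 0.19 ± 0.15 and RPS26 0.15 ± 0.13. RPL4, RPL7 and RPS6 had -0.11 ± 0.14, -0.11 ± 0.16 and -0.08 ± 0.13. The interaction of affection status with tissue gave 0 calls by limma, beside 0% of all probe sets (0 of 57 genes and 121 probe sets, 0.644%, at an unadjusted p under 0.05), with RPL26 at 0.52 ± 0.27 and a median of -0.07, which was 0.01 with quantile normalization.

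Inverted teats were also set against normal teats of non-affected animals, a comparison that shares its arrays with the ones above. In epithelium 0 of 56 genes were called by limma, 0 had an unadjusted p under 0.05 (beside 484 probe sets, 2.74%) and the median was -0.12 with 53 below and 3 above 0, beside 55.5% and 44.5% of all probe sets. With quantile normalization it was -0.01 with 25 above 0. RPS25, a small-subunit protein needed by some internal ribosome entry sites, had 12.57 ± 0.13 in inverted teats and 12.78 ± 0.09 in teats of non-affected animals (SD, n = 5 each), a difference of -0.22 ± 0.11. In mesenchyme 0 of 57 were called, 0 had an unadjusted p under 0.05 (beside 219 probe sets, 1.23%) and the median was 0.14 with 56 of 57 above 0, beside 58.8% of all probe sets; it was 0.07 without animal 1058. RPL14 had 0.25 ± 0.14, RPL13 0.28 ± 0.15 and RPL12 0.22 ± 0.13, all of the large subunit. The 3 luminal keratins had a median of 1.78 there and -0.50 in epithelium, and the skeletal muscle markers 0.01 and 1.49; their part in the ribosomal values was not tested.

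The further probe sets of the same genes told how far 1 probe set stands for a gene. Of the 32 further probe sets, 4 had a mean above 11, 1 each for RPL27 and RPL31 and 2 for RPS18, and 28 were lower. The second bright RPL27 probe set, with a mean of 12.29, had -0.42 ± 0.12 between tissues of inverted teats and was called (limma adjusted p = 0.042), on the same side as -0.36 for the chosen one. A dimmer RPL35 probe set, with a mean of 7.03, was called there too, with -0.56 ± 0.16 (adjusted p = 0.039) beside -0.34 for the chosen one. Neither call held with quantile normalization, where the second RPL27 probe set had -0.02 (adjusted p = 0.91) beside 0.05 for the chosen one, and the dimmer RPL35 probe set -0.41 (adjusted p = 0.13) beside -0.02. In normal teats a dim RPS27A probe set was called higher in epithelium with 0.88 ± 0.19 (adjusted p = 0.0023) beside 0.07 for the bright one, and a dim RPL13A probe set lower with -0.63 ± 0.19 (adjusted p = 0.016) beside -0.01, and both were also called with quantile normalization. On that scale a further RPS28 probe set was also called higher, with 0.39 (limma adjusted p = 0.0039) beside 0.15 for the chosen one. A bright further RPS18 probe set was called too, with 0.25 (limma adjusted p = 0.039) beside 0.06. Neither chosen probe set was called, so these small-subunit genes are not among the 12. The rest of the further probe sets tested were not called there. Of the 58 chosen probe sets, 6 carried the platform's suffix for several transcripts of a gene and 1 that for sequence shared with other transcripts.

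Companion genes of the ribosome were followed between tissues in the same fits; their counts in normal teats are to be read beside the 12.9% of all probe sets called higher and 20.6% called lower, and they are on the deposited scale unless stated. Of the ribosomal genes that the symbol rule left out, 7 were measured, and in normal teats 2 fell in epithelium by limma: RPS27L, a copy of RPS27, with -0.42 ± 0.09 (adjusted p = 0.0015) and RPL7L1, a gene like RPL7, with -0.42 ± 0.10 (adjusted p = 0.0029). RACK1, the scaffold on the small subunit, had -0.15 ± 0.08 and FAU, which encodes a small-subunit protein fused to a ubiquitin-like one, had -0.02 ± 0.08. Of 13 elongation factors and related growth-regulated messengers 0 rose and 4 (30.8%) fell, led by TUFM, the mitochondrial elongation factor, with -0.84 ± 0.13, and PABPC4, which binds poly(A) tails, with -0.78 ± 0.21. EEF1A1, which brings aminoacyl-tRNA to the ribosome, had -0.34 ± 0.17 and TPT1 had -0.22 ± 0.09, without a call.

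Of 30 initiation factors 1 (3.33%) rose, EIF5B, which joins the subunits, with 1.09 ± 0.21 (limma adjusted p = 0.00077), and 9 (30%) fell, among them EIF1, which guards start codon choice, with -0.54 ± 0.09, and EIF2B1, of the exchange factor for initiation factor eIF2, with -0.54 ± 0.09. Of 57 ribosome assembly genes 4 (7.02%) rose and 13 (22.8%) fell, a share lower near that of all probe sets, with NOP10 and IMP3, both of small nucleolar particles, at -0.53 ± 0.09 and -0.58 ± 0.10. Of 16 regulators of ribosome genes 0 rose and 9 (56.2%) fell, with SESN1, an inhibitor of the growth kinase complex mTORC1, at -1.02 ± 0.17 and LARP4B, an RNA-binding protein, at -0.52 ± 0.09. The medians were -0.03, -0.17, -0.12, -0.13 and -0.39 for the 5 lists in the order given, beside -0.02 for the ribosomal proteins and -0.06 for all probe sets. These splits depended on the scale. With quantile normalization 3484 of all 18286 probe sets were called higher and 2888 lower, and the list counts are to be read beside these. On that scale 2 of the 7 left-out ribosomal genes were called higher and 0 lower. Calls were 6 and 2 of 13 elongation factors, 8 and 2 of 30 initiation factors, 8 and 9 of 57 assembly genes and 0 and 6 of 16 regulators. The assembly genes were thus near the shares of all probe sets. Medians of the 5 lists were 0.16, 0.19, 0.11, -0.02 and -0.11. EIF5B had 1.18 there (limma adjusted p = 0.00038) and TUFM -0.70, both still called, whereas RPS27L (-0.07), RPL7L1 (-0.22), EIF1 (-0.18) and NOP10 (-0.16) were not.

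In inverted teats the same lists gave 0 higher and 2, 3, 10, 7 and 5 lower in epithelium by limma as deposited, or 28.6%, 23.1%, 33.3%, 12.3% and 31.2%, beside 11.5% of all probe sets, with medians of -0.31, -0.32, -0.34, -0.22 and -0.43. With quantile normalization 0 of these list genes were called, and the medians were -0.01, 0.11, 0.05, -0.10 and -0.11. As deposited RPS27L had -0.64 ± 0.14, TUFM -1.09 ± 0.15, EEF1A1 -0.53 ± 0.13 and EIF4G1, the scaffold of the cap-binding complex, -0.60 ± 0.13. CNBP, a nucleic acid-binding protein, had -0.62 ± 0.12 and SESN1 -1.03 ± 0.22. Between inverted and normal teats, and between affected and non-affected animals, none of these list genes was called by limma in either tissue. No test of a list as a whole was made.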

How the data were processed

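Total RNA (500 ng) of 30 teat pieces was hybridised to 1 Affymetrix Porcine Genome array each. The deposited table held log2 values per probe set, from 0 to 20.77, used as deposited; whether the authors normalized arrays to one another is not given in the sources used here. GCOS 1.1.1 and PLIER are named per the submitters' processing notes, with no role stated. Of 24123 probe sets 124 control probe sets were left out. Symbols came from the platform annotation (1 symbol for 10069 probe sets, several for 198, none for 13732), and all 58 Entrez IDs were found in the RefSeq gene table. No column of another sample was present. The number of arrays limits the precision.

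Two-sided tests were moderated linear model tests of limma 3.58.1 (R 4.3.3), with Benjamini-Hochberg adjustment over all probe sets tested and a threshold of 0.05. A probe set was tested if it exceeded its array's 30th percentile on at least 5 arrays of the fit. Tissues were fitted apart for teat type and affection status; tissue was tested over the 20 arrays of normal teats with status as a covariate, over the 10 arrays of inverted teats, and interactions over all 30. No fit had a term for the animal, except where the animal is named as a block. The code was tested on simulated data. Pieces with the same number in their description were taken to come from the same animal. Deviations from group means correlated at 0.24 to 0.54 (epithelial) and 0.14 to 0.67 (mesenchymal) between the teats of an animal, and at -0.03 to 0.69 between its tissues. The piece of the same number was the best match for 5 of 5 animals between epithelial teats and 4 of 5 between mesenchymal teats. Between tissues it was so for 2 of 5 (inverted), 3 of 5 (normal, affected) and 4 of 5 (non-affected).

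Genes were named where past the threshold, up to 6 a direction, or by smallest p up to 3; by the 5 largest and 3 smallest within-group SDs; and always RPSA, RPS6, RPL5, RPL11, RPS27A, the stalk genes, FAU, RACK1, EEF1A1 and TPT1. Lists are shown by counts, medians and the 2 members of smallest p. The members, lists and tests were chosen with earlier results of these data known. RPS19BP1 was left out by its suffix. Genes named beyond this rule, such as RPS9, RPL4 and EIF5B, were chosen after their values were seen. Alternatives were quantile normalization, median centring, no filter, the animal as a block, a variance trend, breed, each animal left out, and all probe sets of the genes.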

Additional observations from a re-analysis of the deposited data

Results flagged for a closer look

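Over 32 genes and the array median, 198 groups of 5 arrays were examined for 1 array far from the other 4 (a gap of over 0.71 of the group's range), and 15 were found; chance gives about 1 in 20. Of these, 6 were in the mesenchymal piece of the non-affected animal 1058, each at the low end. RPL3 was 11.55 there against 12.31 to 12.50 in the other 4 animals, RPL6 12.37 against 12.83 to 12.99, and RPL22 12.39 against 12.69 to 12.82. RPS25 was 12.49 against 12.73 to 12.79, RPL26 4.69 against 5.16 to 5.31, and the array median of the 58 genes 12.48 against 12.71 to 12.80. The epithelial piece of that animal had RPS2 at 12.66 against 12.89 to 12.97.

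Animal 950, also non-affected, stood apart for stalk genes. RPLP0 was 13.25 in its epithelial piece against 12.90 to 12.98, and 13.34 in its mesenchymal piece against 12.95 to 13.06. RPLP2 was 11.36 in its epithelial piece against 11.88 to 11.97, and the dim RPL30 3.49 against 0 to 0.98.

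Single values remained in other animals. RPLP1 was 12.60 in the normal epithelium of affected animal 1037 against 12.36 to 12.42, RPS10 was 12.96 in the inverted mesenchyme of animal 1103 against 12.62 to 12.70, and RPS24 was 12.55 in the inverted epithelium of animal 964 against 12.77 to 12.83. RPS25 was 12.93 in the epithelium of non-affected animal 1040 against 12.72 to 12.76.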

How the results depend on the processing

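The tissue comparisons of the ribosomal genes depended on the processing, and the cause was not tested. In normal teats the members called higher in epithelium were 0 as reported, 12 with quantile normalization and 1 each with median centring, with the animal as a replicate block and over all probe sets of the genes, and 0 to 1 with an animal left out (1 without 964). Those called lower were 1 as reported, 0 with median centring or no filter, 2 with the replicate block or over all probe sets, and 0 to 1 with an animal left out. The variance trend also gave 1, but a different gene: RPS2 was called (adjusted p = 0.046, limma) and RPS15A was not (0.055). The median was 0.17 with quantile normalization, against -0.02. In inverted teats the members called lower were 1 as reported, 0 with quantile normalization, median centring, no filter or breed, 6 with the replicate block, 8 with the variance trend, 3 over all probe sets and 0 without any 1 animal; the median was 0.087 with quantile normalization, against -0.22. The median for inverted teats against epithelium of non-affected animals was -0.0083 with quantile normalization, against -0.12. Over all 17108 probe sets in inverted teats, calls numbered 145 higher and 1970 lower as reported and 1 and 1 with quantile normalization. Those lower were 3172 with the replicate block and 2115 with the variance trend. Over all 18286 probe sets in normal teats, calls numbered 2360 higher and 3762 lower as reported. They were 3484 and 2888 with quantile normalization and 3306 and 4818 with the replicate block. No gene called as reported changed sign under any alternative, and the replicate block changed no call in the other comparisons.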
